A study of Homo sapiens with 12 samples.

Results

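The 10 genes described here are immediate early genes of the EGR, FOS and JUN families and 2 immediate early response genes: EGR1, EGR2, EGR3, FOS, FOSB, FOSL1, JUN, JUNB, IER2 and IER3. They were taken by symbol from the table of raw counts, which holds 19504 named genes; all 10 have a row, and 9 of them passed the filter on low counts and were tested among 12392 genes. EGR2 did not pass. The libraries come from 2 established human acute myeloid leukaemia cell lines. In MV4-11 part of the gene of the receptor kinase FLT3 is duplicated in tandem (FLT3-ITD), so that the receptor signals without its ligand, and KMT2A is fused to another gene. OCI-AML3 carries mutations of NPM1 and DNMT3A and no such duplication. Other mutations of either line are not listed here. Each line was kept for 24 h either in DMSO, the solvent, or with 5 nM AC220, also called quizartinib, a FLT3 kinase inhibitor, so the 4 groups are MV4-11 DMSO, MV4-11 AC220, OCI-AML3 DMSO and OCI-AML3 AC220, with 3 libraries each. Each line is a single line of its genotype, so a difference between the lines is not a difference between genotypes alone. Whether the 3 libraries of a group are separate cultures is not in the labels, and the p-values then describe variation among these libraries, some or all of it possibly technical.

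Immediate early genes are transcribed within minutes of a growth signal without new protein synthesis, and most of their mRNAs are short-lived. Signals from receptors and RAS reach them through the ERK kinases, which act on ternary complex factors bound with SRF at CArG boxes, and through kinases that act on CREB family factors at cyclic AMP response elements. EGR proteins are zinc finger transcription factors. FOS and JUN proteins pair through leucine zippers to form AP-1. In myeloid cells EGR1 and AP-1 are also known for their part in the monocyte and macrophage programme.

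The promoters of the members show which of these elements lie close to the start sites, and 4 are printed because they belong to genes that behaved differently in the libraries: EGR1, EGR2 and JUN, which were lower with AC220 in MV4-11, and FOS, for which no difference was called there. Each is the 250 bases before a RefSeq start site in GRCh38.p14, read 5′ to 3′ on the strand of the gene. Capitals mark CArG boxes and TGACG, the core of the cyclic AMP response element, on either strand (CGTCA where it lies on the other strand). The EGR1 window is chr5:138465229-138465478 on the plus strand, the EGR2 window chr10:62816367-62816616 on the minus strand, the FOS window chr14:75278578-75278827 on the plus strand and the JUN window chr1:58784048-58784297 on the minus strand.
EGR1: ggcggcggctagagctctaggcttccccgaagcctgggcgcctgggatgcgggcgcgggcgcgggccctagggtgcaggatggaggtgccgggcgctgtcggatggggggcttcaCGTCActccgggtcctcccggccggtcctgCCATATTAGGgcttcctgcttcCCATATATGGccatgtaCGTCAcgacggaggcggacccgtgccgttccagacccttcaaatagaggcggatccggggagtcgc
EGR2: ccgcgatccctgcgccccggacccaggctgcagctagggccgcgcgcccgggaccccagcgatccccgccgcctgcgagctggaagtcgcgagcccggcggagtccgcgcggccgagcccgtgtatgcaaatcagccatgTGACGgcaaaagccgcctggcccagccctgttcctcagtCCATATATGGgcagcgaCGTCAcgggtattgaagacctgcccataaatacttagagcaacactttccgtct
FOS: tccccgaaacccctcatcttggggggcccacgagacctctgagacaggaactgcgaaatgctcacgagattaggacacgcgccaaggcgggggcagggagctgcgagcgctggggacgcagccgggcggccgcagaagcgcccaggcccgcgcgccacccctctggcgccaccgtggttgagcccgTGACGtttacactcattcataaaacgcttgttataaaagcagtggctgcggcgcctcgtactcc
JUN: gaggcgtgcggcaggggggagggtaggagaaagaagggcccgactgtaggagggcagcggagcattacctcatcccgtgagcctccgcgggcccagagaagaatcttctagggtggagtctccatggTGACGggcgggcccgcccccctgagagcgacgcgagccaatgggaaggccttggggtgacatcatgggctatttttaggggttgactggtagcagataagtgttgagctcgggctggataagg

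A promoter window of 300 bases, the 250 before a start and the 50 after it, was found in RefSeq for 7 of the 10 members, and EGR2 has 3 start sites, which makes 9 windows. EGR3, FOSL1 and IER3 have no entry. Positions below count back from the base before the start, which is -1. EGR1 holds 2 CArG boxes, at -105 to -96 and at -83 to -74, and EGR2 holds 1, at -71 to -62, before the start site printed above. No CArG box was matched in the windows of FOS, FOSB, JUN, JUNB and IER2 or before the other EGR2 starts, and 1.29% of all 35116 promoter windows of the same length hold one. Sequence more than 250 bases before a start was not searched, so a CArG box further upstream, in FOS for example, would be missed. The core TGACG was matched in 1 window of each of the 7 members, against 24.6% of all windows. EGR1 has it at -135 to -131 and -66 to -62, EGR2 at -110 to -106 and -54 to -50, FOS at -64 to -60, FOSB at -60 to -56 and JUN at -123 to -119. In JUNB it lies at -137 to -133 and in IER2 at -140 to -136. The ETS core was searched only as CCGGAA, held by 17.2% of windows, and was matched in FOSB and IER2. Other forms of ETS site were not searched, so the remaining members may hold some. The TATA box TATAAA, held by 11.5%, was matched in FOS, FOSB and JUNB. The full element TGACGTCA, the AP-1 site TGACTCA and the EGR site GCGTGGGCG were matched in none of the 9 windows, and 1.85%, 4.95% and 0.795% of all windows hold them. Variants of these letters were not searched, so tgacatca in the printed JUN window, which is close to TGACGTCA, was not counted. All motifs were searched on both strands, and TGACGTCA contains the core. A match describes the letters only. The part of these motifs in the response to AC220 was not tested.

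**Figure D1:**
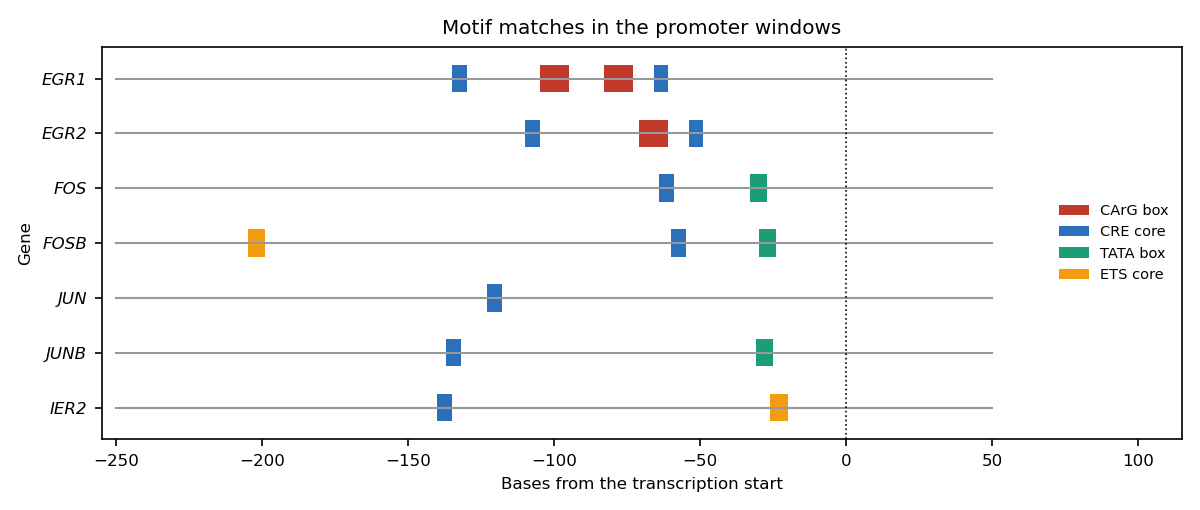
Positions of motif matches in the promoter windows of the members with a RefSeq entry, as distance in bases from the start site (x axis) with 1 line for each of the 7 genes (y axis); the EGR2 line is the window printed in the text, and the other 2 EGR2 windows held no match. Within these windows CArG boxes stand in EGR1 and EGR2 alone, and the core TGACG in all 7.

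The libraries held 10877198 to 16918761 counts, and 3 counts, taken as the floor of detection, correspond to 0.174 to 0.279 CPM, a count scaled to a fixed library total and, by the TMM method, for library composition. QuantSeq libraries hold about 1 fragment per transcript from its 3′ end, so CPM can be set side by side between genes without division by length. No 2 libraries held identical values or differed by as little as sampling noise, and replicates differed by a chi-square of 2.79 to 10.6 per degree of freedom, with MV4-11 AC220 replicate 1 standing furthest from its replicates. Summed myeloid markers were at 451 to 478 CPM in MV4-11 DMSO, 723 to 771 in MV4-11 AC220, 751 to 765 in OCI-AML3 DMSO and 770 to 833 in OCI-AML3 AC220. Of the 10 myeloid markers, 9 or 10 had counts in each group, with ANPEP at 0 in MV4-11 AC220. Summed lymphoid markers were at 13.8 to 14.7 CPM in MV4-11 DMSO, 27.7 to 34 in MV4-11 AC220 and at most 2.1 in OCI-AML3, with CD3E at 0 in all groups. Of the erythroid and megakaryocyte markers, HBA1, HBA2, HBB and GATA1 were at 0 in all groups, and the list summed to 1.54 to 1.92 CPM in MV4-11 DMSO, 2.51 to 3.44 in MV4-11 AC220 and at most 0.347 in OCI-AML3. Summed epithelial and stromal markers, which include VIM, a gene that myeloid cells express as well, were at 43.1 to 63 CPM in MV4-11 DMSO, 64.6 to 93 in MV4-11 AC220, 269 to 364 in OCI-AML3 DMSO and 437 to 619 in OCI-AML3 AC220, with EPCAM at 0 in all groups. All 4 sums were higher with AC220 in MV4-11. In OCI-AML3 the myeloid and the epithelial and stromal sums were higher with AC220 too. So was the erythroid and megakaryocyte sum there, near 0 (at most 0.076 CPM in DMSO and 0.0902 to 0.347 with AC220). The lymphoid sum in OCI-AML3 was lower with AC220 (1.16 to 2.1 CPM in DMSO and 0.722 to 1.15 with AC220). The part of these markers in the results below was not tested.

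In MV4-11, 7 of the 9 tested members fell with AC220 and none rose: EGR1, EGR3, FOSL1, JUN, JUNB, IER2 and IER3. Their decreases ran from 1.84-fold for JUNB to 18.8-fold for EGR1 and IER3, and further for EGR3. FOS and FOSB did not pass the test. Among all tested genes 26.9% fell and 31.5% rose, or 58.3% in either direction, so a fall as such was common in this comparison. The groups did not overlap for the same 7 of the 9, all with AC220 lower, and did not overlap in either direction for 62.4% of all tested genes. The median log2 difference was -1.83 over the 9 members and 0.07 over all tested genes. EGR3 passed the filter on low counts only through the MV4-11 DMSO libraries, so it had to differ, and these counts describe the members that passed and not all 10. In bulk RNA, fewer cells that express a gene and less RNA in each cell cannot be told apart.

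Among the EGR genes, EGR1 was by far the most abundant. It is the growth factor and stress responsive zinc finger factor after which the family is named. EGR1 stood at 41.9, 42.3 and 51.1 CPM in the MV4-11 DMSO libraries and at 2.05, 2.79 and 2.36 CPM with AC220. The groups lay far apart, and every AC220 library was below every DMSO library. The log2 difference was -4.24 (SE 0.236, adjusted p = 6.66e-10, edgeR quasi-likelihood test with Benjamini-Hochberg adjustment over all tested genes), an 18.8-fold lower level. EGR1 fell to about the level of the less abundant members but stayed above the floor in all 3 libraries.

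EGR3, a relative of EGR1 that calcineurin signals induce in lymphocytes, had 85, 93 and 97 counts in the MV4-11 DMSO libraries, or 5.71 ± 0.69 CPM (SD, n = 3). With AC220 it had 0, 0 and 2 counts. The groups did not overlap, and all the AC220 libraries were under the floor. The ratio of the summed counts, 275 against 2, scaled for depth, was 99.2, with a 95% interval of 27.2 to 824 that covers counting error only. The fitted log2 difference, -6.42 (SE 0.612, adjusted p = 3.33e-10), depends on the prior count at such low values and is no bound. It was -9.32 without MV4-11 AC220 replicate 3, the library with both of the counts.

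EGR2, known for its roles in myelination and in macrophage and lymphocyte differentiation, was detected in MV4-11 DMSO only at a low level. It had 12, 14 and 19 counts there, or 0.939 ± 0.265 CPM (SD, n = 3), and 1, 2 and 0 counts with AC220. The DMSO libraries were above the floor and the AC220 libraries below it. The ratio of the summed counts, 45 against 3, was 10.8 (95% counting interval 3.48 to 54.5). When the filter on low counts was left out, so that 16685 genes were tested, EGR2 had a log2 difference of -3.33 (SE 0.935, adjusted p = 0.00126). EGR1 made up 87.2% ± 1.06 of the summed EGR family level in MV4-11 DMSO and EGR3 11.1% ± 0.938 (SD, n = 3). The family sum was 51.7 ± 5.93 CPM in DMSO and 2.61 ± 0.389 CPM with AC220.

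**Figure D2:**
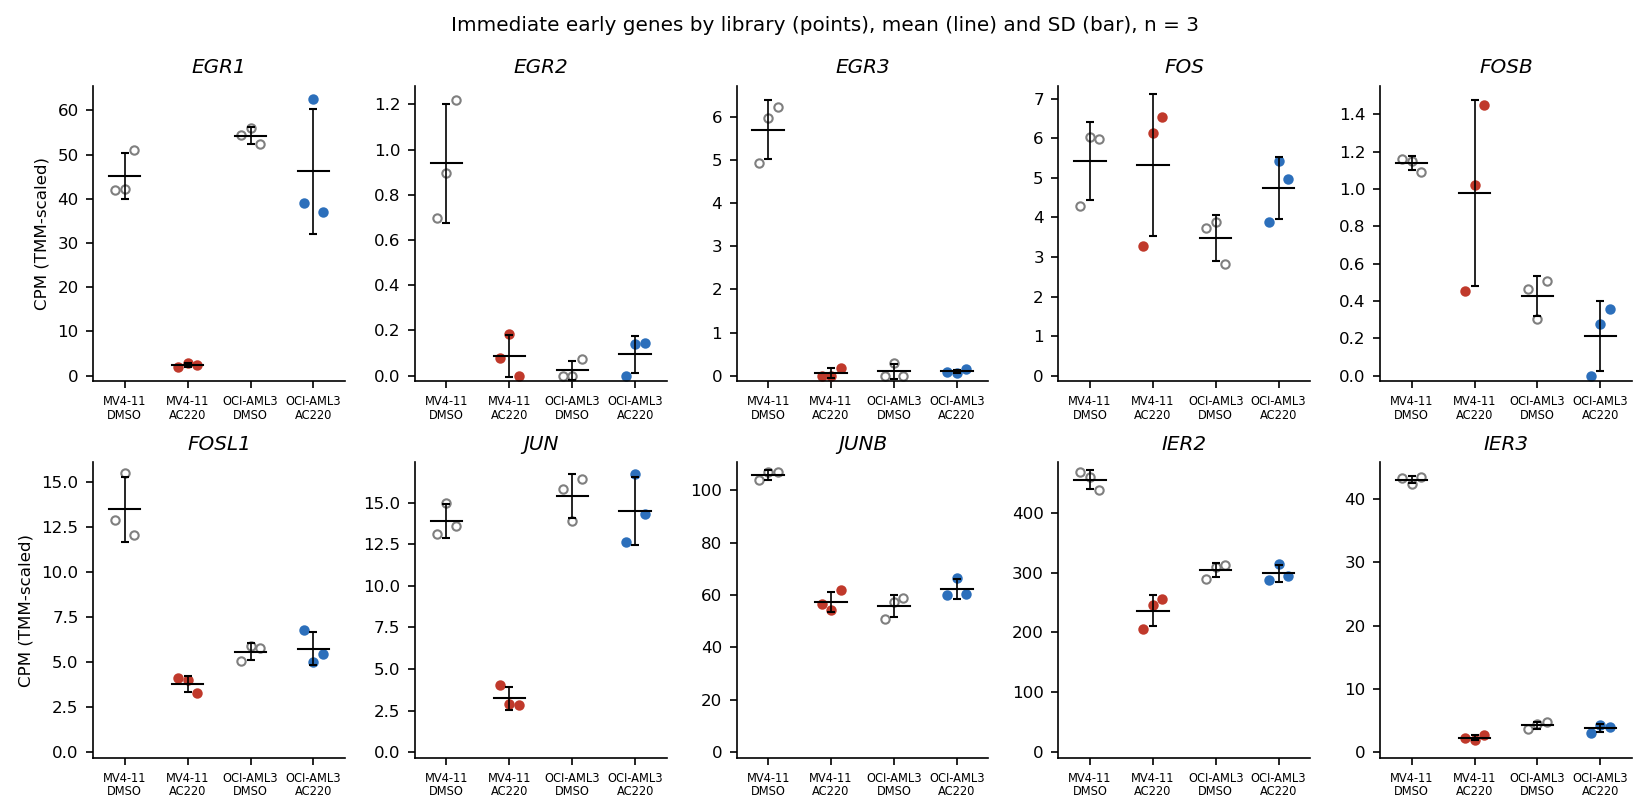
Level of each of the 10 members in CPM (y axes, a linear scale of its own in each panel) in each library of the 4 groups (x axis), with points for libraries and lines for mean and SD of 3. EGR1, EGR2, EGR3 and IER3 are near 0 in MV4-11 AC220, while the FOS and FOSB points of MV4-11 AC220 overlap those of MV4-11 DMSO.

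The 3 FOS family members did not move together in MV4-11. FOS, the first AP-1 subunit to be described, stood at 4.29, 6.03 and 5.98 CPM in DMSO and at 3.27, 6.14 and 6.54 CPM with AC220. Those groups overlapped, with the lowest and the highest value both in the AC220 group. The log2 difference of FOS was -0.04, with a 95% interval of -0.52 to 0.44 (adjusted p = 0.888). The data thus leave room for a change of up to 0.52 downwards or 0.44 upwards. Without MV4-11 AC220 replicate 1, the lowest of the 6 libraries, the log2 difference was 0.23, also not called.

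FOSB, a close relative of FOS that is known for its stable splice form in neurons, was near the lower end of what these libraries measure. It had 20, 18 and 17 counts in MV4-11 DMSO and 6, 11 and 16 with AC220. Every AC220 library had fewer counts than every DMSO library, but scaled for depth the groups overlapped, at 1.09 to 1.16 CPM in DMSO and 0.456 to 1.45 CPM with AC220. The log2 difference was -0.25 (95% interval -1.21 to 0.72, adjusted p = 0.676), and without MV4-11 AC220 replicate 1 it was 0.12.

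FOSL1, also called FRA1, a FOS protein without the transactivation domain of FOS that accumulates under sustained ERK signalling, did fall. It stood at 12.9, 15.5 and 12.1 CPM in MV4-11 DMSO and at 4.1, 4 and 3.27 CPM with AC220. The lowest DMSO library was well above the highest AC220 library. The log2 difference was -1.83 (SE 0.182, adjusted p = 8.25e-10), or 3.56-fold lower. In MV4-11 DMSO FOSL1 was the most abundant of these 3 genes, at 13.5 ± 1.8 CPM, and with AC220 it was at 3.79 ± 0.455 CPM, lower than FOS at 5.32 ± 1.79 (SD, n = 3 each), from which it was then not separated by more than the spread between libraries.

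Both JUN family members fell, to different degrees. JUN, the AP-1 subunit that activates its own promoter, stood at 13.1, 15 and 13.6 CPM in MV4-11 DMSO and at 4.03, 2.89 and 2.82 CPM with AC220. The groups did not overlap. The log2 difference was -2.08 (SE 0.173, adjusted p = 1.88e-11), or 4.29-fold lower. JUNB, a JUN protein that often opposes JUN in proliferation and restrains myeloid progenitors, was more abundant. It stood at 104, 107 and 107 CPM in DMSO and at 56.7, 54.2 and 61.8 CPM with AC220. The lowest DMSO library was far above the highest AC220 library, and the log2 difference of JUNB was -0.88 (SE 0.078, adjusted p = 7.01e-11), or 1.84-fold lower.

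IER2 and IER3 belong to neither family. IER2, a nuclear protein induced by growth factors, was the most abundant of the 10 genes in every group. It stood at 468, 460 and 438 CPM in MV4-11 DMSO and at 206, 246 and 255 CPM with AC220. The groups did not overlap, and the log2 difference was -0.95 (SE 0.069, adjusted p = 9.2e-13), or 1.93-fold lower. IER3, also called IEX-1, a stress and NF-kappaB responsive gene that modulates apoptosis and ERK signalling, stood at 43.4, 42.4 and 43.5 CPM in MV4-11 DMSO. With AC220 it stood at 2.28, 1.86 and 2.72 CPM. The DMSO libraries were nearly equal, and the log2 difference of -4.23 (SE 0.161, adjusted p = 2.39e-19), 18.8-fold lower, was the one with the smallest adjusted p among the members.

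In MV4-11 DMSO the order of mean levels was IER2, JUNB, EGR1, IER3, JUN, FOSL1, EGR3, FOS, FOSB and EGR2. IER2 at 455 ± 15.6 CPM, JUNB at 106 ± 1.83 and EGR1 at 45.1 ± 5.17 stood apart from each other (SD, n = 3). EGR1 and IER3, at 43.1 ± 0.602 CPM, did not differ beyond the spread, nor did JUN, at 13.9 ± 1.01 CPM, and FOSL1. EGR3 and FOS, at 5.43 ± 0.99 CPM, overlapped as well, as did FOSB, at 1.09 to 1.16 CPM, and EGR2. With AC220 the order was IER2, JUNB, FOS, FOSL1, JUN, EGR1, IER3, FOSB, EGR2 and EGR3. There JUN at 3.24 ± 0.68 CPM, EGR1 at 2.4 ± 0.372 and IER3 at 2.29 ± 0.431 lay close together, and JUNB and IER2 kept most of the summed level of the 10 genes, which was 679 to 696 CPM in DMSO and 279 to 336 CPM with AC220. In OCI-AML3 DMSO the order was IER2, JUNB, EGR1, JUN, FOSL1, IER3, FOS, FOSB, EGR3 and EGR2. There JUNB, at 55.7 ± 4.22 CPM, and EGR1, at 54.3 ± 1.84 CPM, overlapped, and so did IER3 and FOS. With AC220 the order in OCI-AML3 was IER2, JUNB, EGR1, JUN, FOSL1, FOS, IER3, FOSB, EGR3 and EGR2, with FOSL1, FOS and IER3 overlapping in turn.

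**Figure D3:**
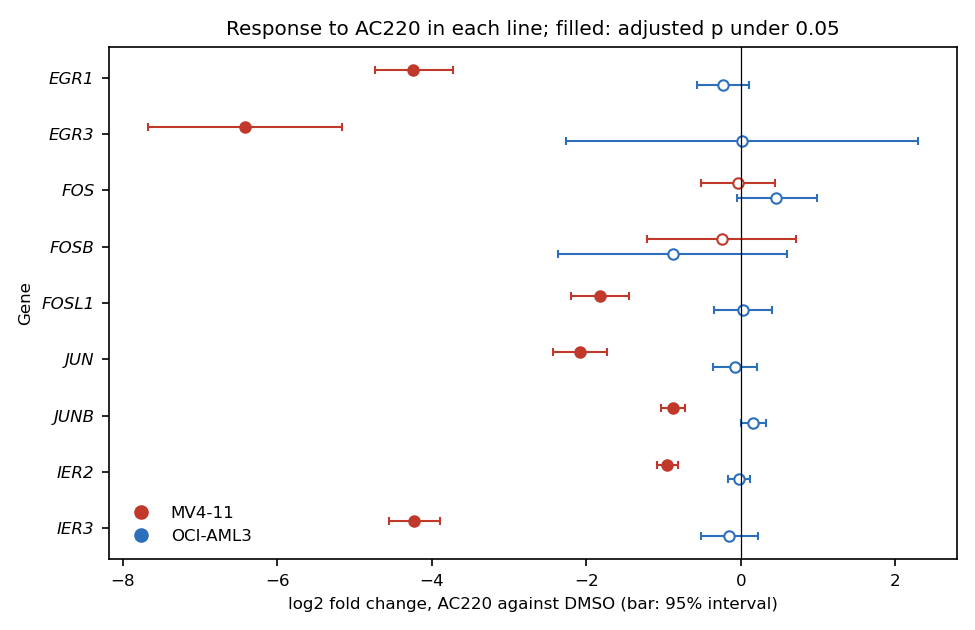
Log2 difference between AC220 and DMSO (x axis) for the 9 tested members (y axis) in MV4-11 and in OCI-AML3, with bars for the 95% interval of the fit. In MV4-11 the values run from -6.42 for EGR3 to -0.04 for FOS, and in OCI-AML3 they run from -0.88 for FOSB to 0.46 for FOS with all intervals reaching 0.

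In OCI-AML3, the line without the duplication, none of the 9 tested members was called with AC220 by edgeR, and none had an unadjusted p under 0.05. Of all tested genes 3.95% were called, 3.44% higher and 0.508% lower. DESeq2 called 0 members, limma-voom called 0 with 1 at an unadjusted p under 0.05, and limma on the deposited normalised values called 0. The groups did not overlap for 2 of the 9, JUNB and FOS, both with AC220 higher, and for 23.9% of all tested genes in either direction. The median log2 difference was -0.02 over the members and 0 over all tested genes. How many genes of the whole table were called in OCI-AML3 depended on single libraries, at 489 with all libraries and between 13 and 1136 when 1 of the 12 was left out.

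EGR1 stood at 54.5, 56.1 and 52.4 CPM in OCI-AML3 DMSO and at 39, 62.5 and 37.1 CPM with AC220. Replicate 2 of the AC220 group was above every DMSO library and the other AC220 libraries were below every one of them. The log2 difference was -0.23 (95% interval -0.57 to 0.11, adjusted p = 0.455). Without that replicate it was -0.51 with an adjusted p of 0.031, so 1 library decided this call. The spread of EGR1 among its replicates was wider than usual for its level: its biological coefficient of variation was 13.8%, against a median of 7.51% over the 200 genes nearest to it in mean level.

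For IER2, JUNB and JUN the 95% intervals in OCI-AML3 were -0.16 to 0.12, 0 to 0.32 and -0.36 to 0.21 on the log2 scale. IER2 stood at 290, 309 and 312 CPM in DMSO and at 287, 315 and 295 CPM with AC220, with overlapping groups and a log2 difference of -0.02 (adjusted p = 0.896). JUNB stood at 50.9, 57.5 and 58.8 CPM in DMSO and at 59.9, 66.5 and 60.5 CPM with AC220. All AC220 libraries were above all DMSO libraries for JUNB, but its log2 difference of 0.16 was not called (adjusted p = 0.244). JUN stood at 15.8, 13.9 and 16.4 CPM in DMSO and at 12.6, 16.7 and 14.3 CPM with AC220, with overlapping groups and a log2 difference of -0.08 (adjusted p = 0.823).

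FOSL1 stood at 5.59 ± 0.469 CPM in OCI-AML3 DMSO and at 5.74 ± 0.916 CPM with AC220 (SD, n = 3), a log2 difference of 0.03 (95% interval -0.35 to 0.41, adjusted p = 0.961). IER3 stood at 4.25 ± 0.54 CPM in DMSO and at 3.8 ± 0.649 CPM with AC220, a log2 difference of -0.15 (95% interval -0.52 to 0.22, adjusted p = 0.697). For both genes the groups overlapped. FOS stood at 3.73, 3.88 and 2.82 CPM in DMSO and at 3.88, 5.42 and 4.96 CPM with AC220, so the lowest AC220 library was just above the highest DMSO library. Its log2 difference was 0.46 (95% interval -0.05 to 0.98, adjusted p = 0.298). FOSB, with 6, 4 and 7 counts in DMSO and 0, 4 and 5 with AC220, had a log2 difference of -0.88 with an interval of -2.37 to 0.6 (adjusted p = 0.533). EGR2 had 1 count in all in OCI-AML3 DMSO and 4 with AC220, and EGR3 had 4 in each, so both were at or near the floor in OCI-AML3 under either condition. A fall of EGR2 or EGR3 was not detectable there at this depth, and the ratio of AC220 to DMSO counts was 1.01 for EGR3 (95% counting interval 0.188 to 5.43) and 4.05 for EGR2 (0.4 to 199).

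The difference between the responses of the lines was tested itself, as an interaction term. In 7 of the 9 members the response in MV4-11 was lower than that in OCI-AML3, and in none was it higher, while 23.7% of all tested genes were called lower, 23% higher and 46.7% in either direction. The test uses the same MV4-11 libraries as the comparison within that line, and EGR3, which entered it only through the MV4-11 DMSO libraries, had to differ. The difference was -4.01 for EGR1 (SE 0.293, adjusted p = 3.26e-08), -4.08 for IER3 (adjusted p = 4.43e-14) and -6.44 for EGR3 (SE 1.67, adjusted p = 0.00221), which has only 4 counts in each OCI-AML3 group. Those of the DMSO group lie all in replicate 2, and without that library the EGR3 value was -10.0. It was -2.01 for JUN (adjusted p = 1.75e-08) and -1.85 for FOSL1 (adjusted p = 9.19e-07). For JUNB it was -1.04 (adjusted p = 6.35e-09) and for IER2 -0.93 (adjusted p = 4.41e-09). FOS, at -0.51 (95% interval -1.21 to 0.19, adjusted p = 0.232), and FOSB, at 0.64 (adjusted p = 0.573), were not called.

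Under DMSO the lines already differed in most of the members. MV4-11 was higher than OCI-AML3 in 7 of the 9 and lower in none, where 32.1% of all tested genes were higher, 33.4% lower and 65.5% called in either direction. The lines did not overlap for 8 of the 9 members, all but JUN, and for 71.9% of all tested genes. EGR3 and FOSB passed the filter only through MV4-11 libraries, so a higher value in MV4-11 was favoured for both, and the count of 7 includes them. This comparison shares the MV4-11 DMSO libraries with the one above, so a high value in them enters both. IER3 showed the clearest of these differences, at 43.1 ± 0.602 CPM in MV4-11 and 4.25 ± 0.54 CPM in OCI-AML3 (log2 difference 3.34, adjusted p = 2.43e-18, 10.1-fold). EGR3, with 275 counts against 4, had a ratio of 56.6 (95% counting interval 21.9 to 209), and EGR2, with 45 against 1, a ratio of 37.1 (6.32 to 1500). Both genes were above the floor in every MV4-11 DMSO library. The fitted log2 difference of EGR3, 5.70 (adjusted p = 1.98e-10), was 9.29 without OCI-AML3 DMSO replicate 2. FOSL1 differed by 1.27 (adjusted p = 1.52e-07), JUNB by 0.93 (adjusted p = 1.38e-11) and IER2 by 0.58 (adjusted p = 1.39e-08) on the log2 scale.

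EGR1 and JUN were the members not called between the untreated lines. JUN was at 13.9 ± 1.01 CPM in MV4-11 and 15.4 ± 1.3 CPM in OCI-AML3 (SD, n = 3), with overlapping groups and a log2 difference of -0.15 (adjusted p = 0.368). EGR1 was at 45.1 ± 5.17 CPM in MV4-11 and 54.3 ± 1.84 CPM in OCI-AML3, a log2 difference of -0.27 (adjusted p = 0.147). Every OCI-AML3 DMSO library was above every MV4-11 DMSO library for EGR1, and the difference was called when those groups were fitted alone (adjusted p = 0.00345) and when OCI-AML3 AC220 replicate 2 was left out (adjusted p = 0.0139). FOS (log2 difference 0.64, adjusted p = 0.0214) and FOSB (1.40, adjusted p = 0.0224) were called higher in MV4-11 at low levels, FOSB after passing the filter through MV4-11 alone. Neither call held throughout: that of FOS was lost without MV4-11 DMSO replicate 2 (adjusted p = 0.0803), MV4-11 DMSO replicate 3 (adjusted p = 0.0775) or OCI-AML3 DMSO replicate 3 (adjusted p = 0.105), and that of FOSB without MV4-11 DMSO replicate 1 (adjusted p = 0.0515) or OCI-AML3 DMSO replicate 2 (adjusted p = 0.0806).

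With AC220 in both lines, MV4-11 was lower than OCI-AML3 in 5 of the 9 members and higher in 1, FOSB, where 39.5% of all tested genes were lower, 36.7% higher and 76.2% called in either direction. The lines did not overlap for 6 of the 9 members and for 75.5% of all tested genes. EGR1 was 19.2-fold lower (log2 difference -4.28, adjusted p = 2.48e-10) and JUN was lower by -2.15 on the log2 scale (adjusted p = 3.88e-12). IER3, 10.1-fold higher in MV4-11 under DMSO, was lower there under AC220, at -0.74 (adjusted p = 0.00193). FOSL1, at -0.58 (adjusted p = 0.00949), and IER2, at -0.35 (adjusted p = 5.33e-05), were likewise higher under DMSO and lower under AC220. The FOSL1 call was lost without OCI-AML3 AC220 replicate 1 (adjusted p = 0.0548), and that of IER2 with limma on the deposited values (adjusted p = 0.0966). JUNB, at -0.12 (adjusted p = 0.188), and FOS, at 0.14 (adjusted p = 0.618), were not called. FOSB was higher in MV4-11 by 2.03 (adjusted p = 0.00556), a direction that its passing the filter through MV4-11 libraries alone had favoured, and EGR3 was under the floor in every AC220 library of both lines.

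The members are only some of the genes of their families. FOSL2, or FRA2, held 81.1% ± 1.19 of the summed FOS family level in MV4-11 DMSO and 94.1% ± 1.2 with AC220 (SD, n = 3). FOSL2 rose in MV4-11, from 85.7 to 162 CPM on average (log2 difference 0.92, SE 0.0672, adjusted p = 1.24e-12), and the family sum was 106 ± 5.55 CPM in DMSO and 172 ± 4.61 CPM with AC220, while FOSL1 fell. In OCI-AML3 the FOSL2 share was 91.7% in DMSO and 91.4% with AC220, and FOSL2 was not called there (log2 difference 0.10, adjusted p = 0.4). JUND, a JUN protein made at a steady level in most cells, is given to complete its family and was chosen after its values were seen. JUND held 83.3% of the JUN family sum in MV4-11 DMSO and 51.1% in OCI-AML3 DMSO. It fell in MV4-11 from 597 to 363 CPM (log2 difference -0.72, SE 0.064, adjusted p = 8.36e-11), and the family sum was 717 ± 37.1 CPM in DMSO and 424 ± 7.64 CPM with AC220. JUN itself was 1.94% of that sum in MV4-11 DMSO and 0.767% with AC220, against 10.6% and 9.53% in OCI-AML3. EGR4 had 0 counts in MV4-11 DMSO and 2 with AC220, and 47 and 68 counts in OCI-AML3, so beside EGR1 the lines differed in which EGR genes were detected.

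**Figure D4:**
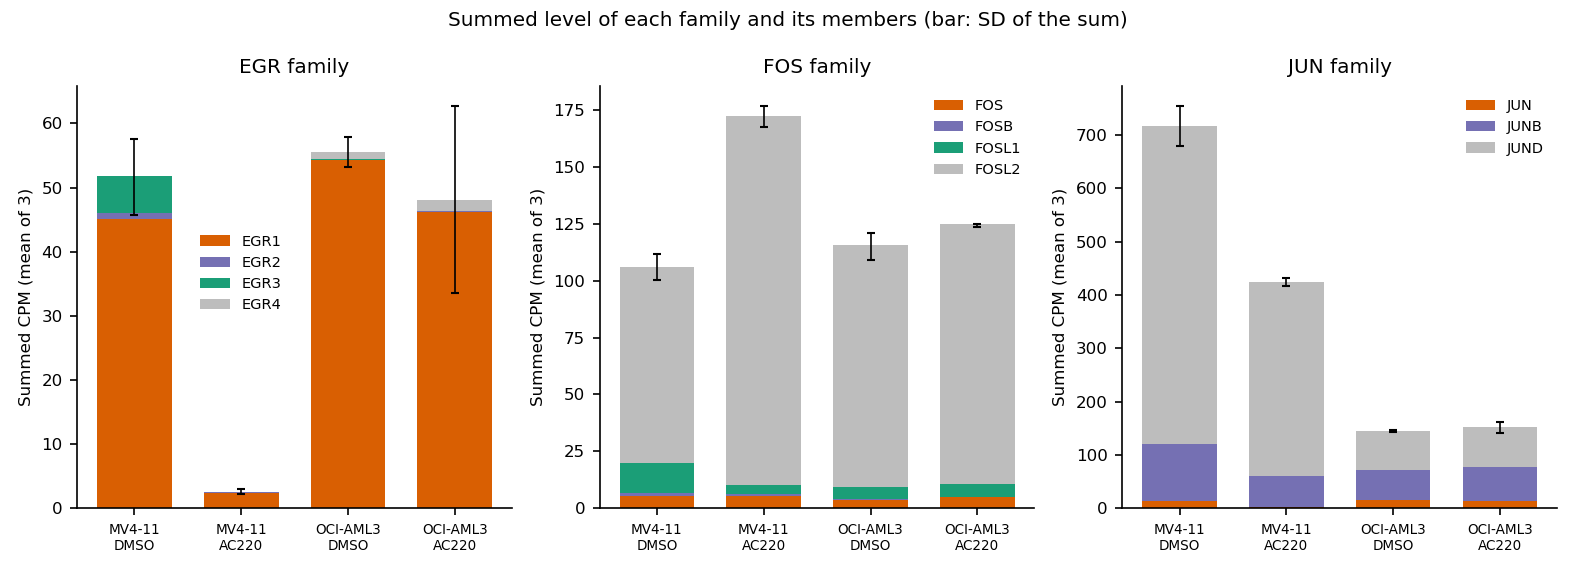
Summed CPM of the EGR, FOS and JUN families (y axes) in the 4 groups (x axis), stacked by gene as means of 3 libraries, with bars for the SD of the sum. Grey parts are EGR4, FOSL2 and JUND, which are not among the 10 genes. FOSL2 makes up most of the FOS family in all 4 groups. JUND makes up most of the JUN family in MV4-11, and 51.1% in OCI-AML3 DMSO and 49.4% in OCI-AML3 AC220. The EGR sum in MV4-11 AC220 is 2.61 CPM.

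Other genes of the pathway were followed through 10 lists, whose counts in MV4-11 stand against 31.5% of all tested genes that rose and 26.9% that fell. The remaining partners and relatives of AP-1 moved both ways in MV4-11: of 13 tested, 5 rose and 6 fell, with a median log2 difference of -0.08. Besides FOSL2, the genes with the smallest adjusted p were JDP2, a repressive dimerisation partner, which fell by 2.62 on the log2 scale (SE 0.103, adjusted p = 5.13e-19), and BATF3, a basic leucine zipper factor of dendritic cells, which fell by 5.95 (SE 0.263, adjusted p = 1.84e-17). BATF3 stood at 16.5 to 19.5 CPM in the MV4-11 DMSO libraries and at 0.152 to 0.559 CPM with AC220, where it had 2, 6 and 2 counts, so that its fitted value is no bound. It was -6.71 without MV4-11 AC220 replicate 2. MAFG, a small MAF protein, had a log2 difference of 0.00 in MV4-11 and was called higher in OCI-AML3 at 0.35 (adjusted p = 0.015), the only gene of this list called there.

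Of the 4 relatives and regulators of EGR, 1 rose and 1 fell, with a median of 0.06. WT1, a zinc finger factor that binds sites like those of EGR1, fell by 1.10 (adjusted p = 1.57e-10), and NAB2, a corepressor that EGR1 induces and that binds it, rose by 0.44 (adjusted p = 0.000158). NAB2 stood at 33.6 to 37.5 CPM in MV4-11 DMSO and at 44.2 to 55.5 CPM with AC220. NAB1, the other corepressor, was at -0.33 and not called (adjusted p = 0.0934), though it was without MV4-11 AC220 replicate 3 (adjusted p = 0.0138).

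Factors that act at the promoters of immediate early genes were split as well. Of the 8 SRF and ETS factors 3 rose and 2 fell in MV4-11, with a median of 0.24, and of the 7 tested CREB factors and coactivators 3 rose and 2 fell, with a median of 0.05. ETS2 rose from 53.9 ± 2.07 to 217 ± 7.32 CPM (SD, n = 3; log2 difference 2.01, adjusted p = 2.17e-19), ETS1 fell by 2.24 (adjusted p = 1.52e-09), and MRTFA, an actin-regulated coactivator of SRF, rose by 1.18 (adjusted p = 2.12e-09). SRF itself fell by 0.28 (adjusted p = 0.0263), a call that was lost without MV4-11 DMSO replicate 1 or 2, without MV4-11 AC220 replicate 1 and with limma on the deposited values. Among the CREB factors CREBBP (0.48), CREB1 (0.31) and CRTC1 (0.67) rose, and CREM and ATF1 fell, by 0.52 and 0.30. The CRTC1 call was lost without MV4-11 AC220 replicate 2 (adjusted p = 0.0725) and with limma on the deposited values (adjusted p = 0.059), and the ATF1 call without MV4-11 DMSO replicate 2 (adjusted p = 0.0506). The CREM call was lost without MV4-11 DMSO replicate 1 (adjusted p = 0.131), MV4-11 DMSO replicate 2 (adjusted p = 0.0622) or MV4-11 AC220 replicate 2 (adjusted p = 0.125). In OCI-AML3 ETS2 was called higher, at 0.33 (adjusted p = 0.018), and no CREB factor was called.

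Genes of the upstream cascades were called in MV4-11 at shares near the 58.3% of all tested genes, given lists this short. Of the 17 tested genes from RAS to RSK, 3 rose and 5 fell in MV4-11, with a median of -0.1, and of the 10 tested genes of the JNK and p38 cascades 3 rose and 2 fell, with a median of 0.02. RPS6KA1, the RSK1 kinase, fell by 0.78 (adjusted p = 1.59e-10), HRAS fell by 0.86, and GRB2, the adaptor that joins receptors to RAS, rose by 0.47. MAP3K1 rose by 1.02 (adjusted p = 8.79e-12) and MAP2K6 by 1.5, while MAPK8 and MAPK9, which encode the kinases JNK1 and JNK2, fell by 0.49 and 0.76. In OCI-AML3 GRB2 (0.33, adjusted p = 0.0105), RPS6KA5 (0.67, adjusted p = 0.0275) and MAP2K3 (0.75, adjusted p = 0.0184) were called higher. The libraries measured mRNA, and kinase activity was not measured.

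Of the 32 other immediate early genes listed, 24 were tested. In MV4-11 13 of them fell and 5 rose, with a median of -0.62, against 0.07 for all tested genes. TNFAIP3, the NF-kappaB feedback inhibitor A20, fell by 1.85 (adjusted p = 1.01e-12), RHOB, a small GTPase, by 2.20 and PHLDA1 by 1.66. TNFAIP3 stood at 37.2 to 42.1 CPM in MV4-11 DMSO and at 9.88 to 12.9 CPM with AC220, and at 7.49 ± 1.62 CPM in OCI-AML3 DMSO (SD, n = 3). KLF4 was the gene of this list called in OCI-AML3, higher at 1.93 (adjusted p = 0.0453). That call was lost with the replicate block (adjusted p = 0.0692), without any 1 of the MV4-11 DMSO libraries (adjusted p from 0.0524 to 0.0653), and without any 1 of the OCI-AML3 DMSO libraries or OCI-AML3 AC220 replicate 2 or 3 (adjusted p from 0.0852 to 0.269). KLF4 had a log2 difference of -1.92 in MV4-11 that was not called (adjusted p = 0.0509), but was by limma-voom (adjusted p = 0.0473) and without MV4-11 DMSO replicate 1 (adjusted p = 0.0296). CCN1 and ARC had 0 counts in all groups.

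Of the 17 tested genes listed as targets of AP-1 or EGR factors, 9 fell and 2 rose in MV4-11, with a median of -1.7. TNF fell by 4.76 (adjusted p = 2.93e-20), from 53.9 ± 1.59 to 1.95 ± 0.833 CPM (SD, n = 3). VEGFA fell by 2.26 (adjusted p = 9.93e-15), and IL1B fell by 6.0 (adjusted p = 1.71e-13) from 4.81 to 6.88 CPM in DMSO to at most 0.186 CPM, under the floor, with AC220, so that its fitted value is no bound. CD44 and TIMP1 rose, by 0.34 and 0.28, and the TIMP1 call was lost without MV4-11 AC220 replicate 2 (adjusted p = 0.0703) or 3 (adjusted p = 0.0624). In OCI-AML3 IL1B was called higher, at 0.63 (adjusted p = 0.0176). Of the 12 genes for proteins that bind AU-rich elements or degrade such mRNAs, 6 fell and 2 rose in MV4-11, with a median of -0.16. HNRNPD fell by 0.64 and KHSRP by 0.62, while TIA1 and ZFP36L2 rose, by 0.63 and 0.72. ELAVL1, or HuR, which stabilises such mRNAs, fell by 0.47 in MV4-11 and was called higher in OCI-AML3, at 0.32.

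Heat shock genes were followed because handling stress induces them along with immediate early genes. In MV4-11 6 of the 9 tested fell and 3 rose, with a median of -0.68, and their summed level was 4110 to 4230 CPM in DMSO and 2640 to 2650 CPM with AC220. HSPD1 fell by 0.88, HSPA8 by 1.06 and HSP90AA1 by 0.73, while HSPA1A, HSPA1B and HSPB1 rose, by 0.7, 0.68 and 0.44. HSP90AA1 alone held a mean of 2470 CPM of the sum in MV4-11 DMSO and 1490 CPM with AC220. In OCI-AML3 the sum was 4980 to 5200 CPM in DMSO and 4890 to 5420 CPM with AC220, with DNAJB1 called lower, at -0.40 (adjusted p = 0.0254), and HSPE1 higher, at 0.34 (adjusted p = 0.0255). The part of the heat shock genes in the results for the members was not tested. Of the 10 genes of these lists called in OCI-AML3, 0 were called without OCI-AML3 DMSO replicate 1, without OCI-AML3 DMSO replicate 2, without OCI-AML3 AC220 replicate 3 or with limma on the deposited values, and 3 without OCI-AML3 AC220 replicate 2.

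**Figure D5:**
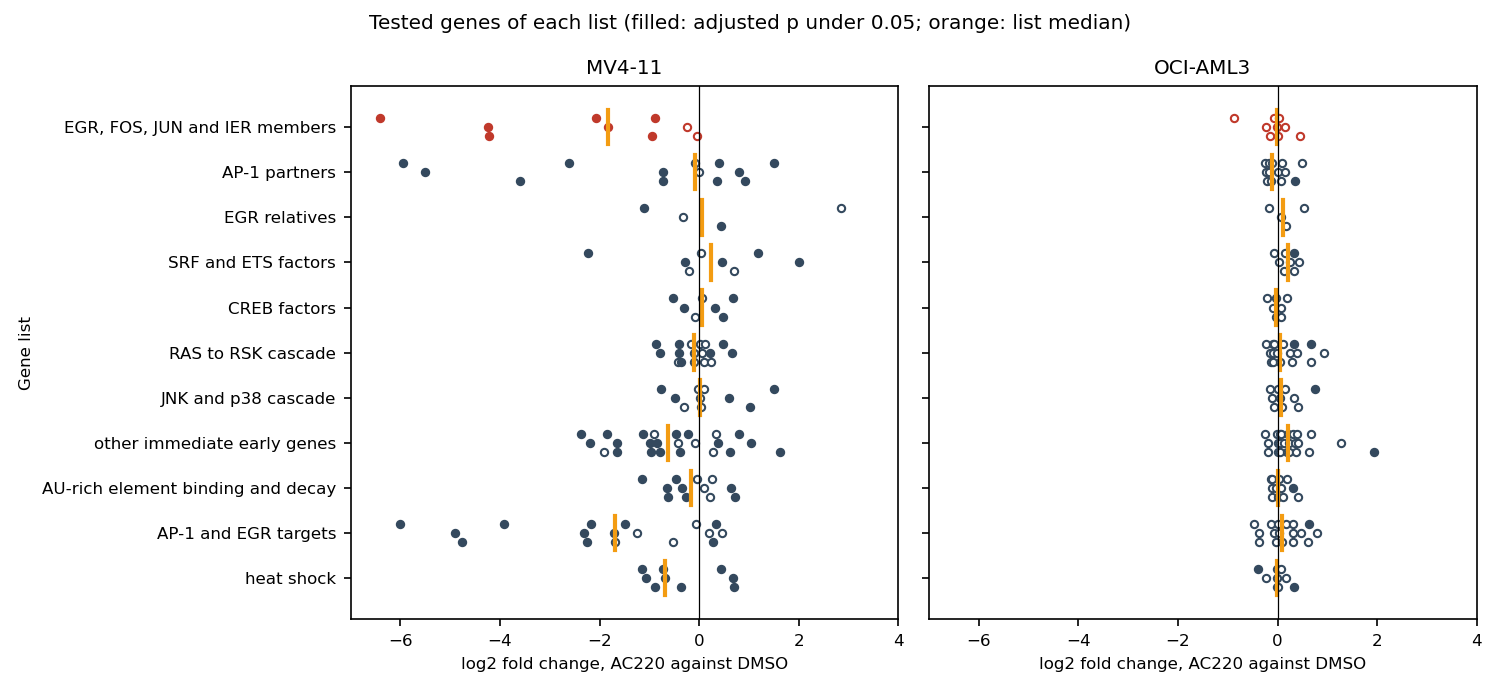
Log2 difference between AC220 and DMSO (x axis) for each tested gene of the 10 members and of the 10 lists (y axis), with 1 point per gene and a line at the median, in MV4-11 and in OCI-AML3. In MV4-11 the median is -1.83 for the members, -1.7 for targets of AP-1 and EGR factors and -0.62 for other immediate early genes, and in OCI-AML3 all the medians lie between -0.11 and 0.21.

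The genes whose pattern over the 12 libraries was most like that of 4 members were looked up by Pearson's r of log2 CPM, as a description, since the libraries fall into groups. EGR1 was followed most closely by PLXNA1 (r = 0.997), YARS (0.995) and CHAC1 (0.994). PLXNA1 was at 33.2 CPM in MV4-11 DMSO, 3.76 in MV4-11 AC220, 38.1 in OCI-AML3 DMSO and 36 in OCI-AML3 AC220. JUN was followed by HELLS (0.993), PRKDC (0.99) and CEP55 (0.99), and HELLS was at 88.7, 10.2, 94.5 and 85.1 CPM in the same order of groups. IER3 was followed by CCPG1, GDAP1L1 and RHOH (0.98 each), which were likewise highest in MV4-11 DMSO; CCPG1 was at 298 CPM there and at 74.7, 116 and 113 CPM in the other groups. The genes closest to FOS were less like it: ATE1 reached 0.794, TMED4 0.771 and CCDC174 0.763.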

How the data were processed

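The study measured polyadenylated RNA in 12 QuantSeq 3′ libraries, 3 for each of 4 groups of line and treatment, taken from the sample titles. The authors deposited whole-number read counts per gene symbol and a table of normalised log2 values. Per the submitters' processing notes, the build was hg19 and the tools were HISAT2 (2.0.4), Subread (2.0.0) and its featureCounts, cutadapt (1.9.1), FastQC (0.11.6), bcl2fastq (2.17.1.14), limma (3.42.2) and R (3.6.1); the gene annotation, strand setting and treatment of reads with several matches are not given in the sources used here, so reads from overlapping or antisense genes cannot be told apart. The scale of the normalised log2 values the authors deposited is described only by that table, and it served as an alternative input alone. Counts of the 1 row without a symbol (0.00343% to 0.00503% of a library) were left out.

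Counts of all 12 libraries were fitted with edgeR 4.0.16 in R 4.3.3: TMM scaling, the filter filterByExpr with a minimum count of 10, robust quasi-likelihood fits with 8 residual degrees of freedom, and Benjamini-Hochberg adjustment over the 12392 genes tested, with calls at an adjusted p under 0.05. Levels are TMM-scaled CPM. Intervals are 95% and, for ratios of summed counts and floors of 3 counts, cover counting error only. The scripts were tested on simulated data. Tried in turn were size factors by median ratios, leaving out the filter, a filter of 1 CPM in 3 libraries, DESeq2 1.42.0, limma-voom and limma 3.58.1 on the deposited values, a replicate block, the compared groups alone and leaving out each library.

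The members, lists and rules were chosen with earlier results of these data known. All members are named in every comparison. From each list the text names the 3 genes with the smallest adjusted p in MV4-11, genes called against the direction of most of the list where there are at most 2 of these, and genes called in OCI-AML3 where there are at most 3. The 3 heat shock genes that rose in MV4-11 are named beyond this rule. Of 165 listed genes outside the members, 164 had a row. For 5 of them the list gave an older symbol and the row a newer one. Promoter sequences are from RefSeq, GRCh38.p14, whose coordinates were not mixed with the hg19 counts. Same-numbered replicates were not treated as pairs.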

Additional observations from a re-analysis of the deposited data

Results flagged for a closer look

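For 7 members the test of the difference between the responses of the lines passed the threshold, with the log2 response to AC220 in MV4-11 below that in OCI-AML3. The difference was -4.01 for EGR1, -6.44 for EGR3, -1.85 for FOSL1, -2.01 for JUN, -1.04 for JUNB, -0.93 for IER2 and -4.08 for IER3. The value for EGR3 rests on 2 counts in MV4-11 AC220 and 4 in each OCI-AML3 group. Of all tested genes, 46.7% had a response that differed between the lines.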

How the results depend on the processing

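Over 20 alternatives (19 for the difference between the lines) the number of members called ranged from 7 to 8 in MV4-11 and in the difference between the lines, from 6 to 9 between the lines under DMSO and from 4 to 6 under AC220. EGR2 was tested only under some of these, without the filter for example. In OCI-AML3 it was 0, or 0 to 1 with 1 library left out. The number of all genes called in OCI-AML3 was 489, but 836 without the filter, 813 with DESeq2, 1 with limma on the deposited values and 13 to 1136 with 1 library left out.

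Among the members' values the sign turned only for differences that were not called. With 1 library left out, FOS in MV4-11 ranged from -0.27 to 0.23 and FOSB from -0.70 to 0.12, both highest without MV4-11 AC220 replicate 1. In OCI-AML3 EGR3 was at -0.01 with median-ratio factors and FOSL1 at -0.03 with limma on the deposited values. With 1 library left out, EGR3 ranged from -0.56 to 3.57 in OCI-AML3, highest without OCI-AML3 DMSO replicate 2, FOSL1 from -0.10 to 0.12, JUN from -0.19 to 0.01 and IER2 from -0.06 to 0.00, and FOS between the lines under AC220 from -0.06 to 0.40. MAFG in MV4-11, at 0.00, was at 0.00 with median-ratio factors, the stricter filter, DESeq2 or without MV4-11 DMSO replicate 3, with the opposite sign before rounding, at 0.11 with limma on the deposited values and at 0.01 without MV4-11 AC220 replicate 2. The cause was not tested.

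With the replicate number as a block, 7 members were called in MV4-11, 0 in OCI-AML3, 7 in the difference between the lines, 7 between the lines under DMSO and 6 under AC220, and 381 genes were called in OCI-AML3. Deviations of same-numbered libraries correlated at -0.12, -0.09 and -0.08 in MV4-11 and at 0.08, 0.05 and 0.18 in OCI-AML3, where 2 of 3 numbers correlated best with their own. With 3 libraries per group these values cannot decide whether the numbers pair the libraries. Depth limits EGR2, EGR3 in OCI-AML3, and FOSB.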
